A study of Mus musculus with 16 samples.

Results

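At the epicenter of a clip injury of the mouse lumbar cord, 30 days after it, the transcriptome was compared with that of uninjured cord over all genes. The comparison rests on 8 of the 16 libraries of the series, 4 epicenter libraries against 4 uninjured libraries, taken by their group labels. Epicenter tissue was taken from female mice, 12 weeks old, of the strain written C57BL7J in the labels. Their lumbar cord had been bruised and squeezed at L1/L3 by a Fejota clip of 8 g, and each piece is the 3 mm of cord that covered the lesion. The uninjured libraries came from mice of the same strain, sex and age with no injury, carry the same 30-day time label, and hold the 9 mm of cord from T11 to S1 processed as 1 piece. The groups thus differ in the stretch of cord sampled as well as in injury, for every gene. Pieces of 3 mm above and below the lesion, 4 libraries each, entered the fit and are used only where the epicenter is set against them. No transgene, drug or diet is named in the labels, nor is it stated that each library is a different animal. Each p-value is thus set by differences between libraries that may be partly or wholly technical.

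A contused cord passes from bleeding and loss of neurons and glia to a chronic lesion, in which blood-borne macrophages and microglia clear myelin debris, fibroblasts from vessels and meninges lay down a fibrous core, Schwann cells enter from the roots, and astrocytes form a border. Most of these cells express genes that resting cord has little of, so a piece of lesion and a piece of intact cord differ in cell makeup as well as in what each cell transcribes. Bulk RNA gives 1 sum over all cells of a piece: more cells of a type and more RNA per cell of that type cannot be told apart in any value below.

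Total counts were 67140893 to 83829931 in epicenter libraries and 65627900 to 80342399 in uninjured libraries. Levels are in CPM, counts scaled to library size by TMM. Where ± follows a log2 fold change, it gives the standard error from the fit and not a spread between libraries. A count of 0 in a library allows up to 3 counts at 95% confidence, worth 0.0358 to 0.0445 CPM at the epicenter and 0.0387 to 0.0485 CPM in uninjured cord, which covers counting error only. The 4 rows that take reads of ribosomal RNA type held 8.23, 9.42, 13.7 and 9.76% of the counts in epicenter libraries 1 to 4 and 7.81 to 9.11% in uninjured libraries, and epicenter 3, with the highest share, also stood apart across genes. Among 6358 called genes of at least 20 CPM, epicenter 3 was the highest epicenter library in 33.8% and the lowest in 42.7%. Summed neuron markers (8 of 8 lower) gave 1690, 1790, 1220 and 1880 CPM in epicenter libraries 1 to 4 and 3760 to 4010 CPM in uninjured libraries. Oligodendrocyte markers (4 of 6 lower) gave 14400 to 18200 CPM at the epicenter and 18900 to 19600 CPM in uninjured cord, so that markers of both classes were present in every library. Markers of other tissues were also higher. Meningeal markers rose in 7 of 8 cases (157 to 262 CPM in sum at the epicenter, 19.7 to 22.3 CPM in uninjured cord) and those of red blood cells in 7 of 7 (587 to 857 against 52.8 to 106 CPM). Those of skeletal muscle rose in 5 of 8 (6.25 to 12.0 against 3.41 to 4.15 CPM). Of these 5, Myh4 had 1.64 CPM in epicenter 1 and at most 0.0670 CPM in the other epicenter libraries. Myh1 had 2.43 CPM in epicenter 3 and at most 0.386 CPM in the others. Markers of fat rose in 4 of 4 tested (32.6 to 72.2 against 9.55 to 15.7 CPM). Plin4 made up most of the fat sum, with 27.1 to 66.3 CPM at the epicenter, where Adipoq and Cfd had means of 0.217 and 0.268 CPM. Dorsal root ganglion markers were called higher in 5 of 7 cases, and epicenter 4 held most of the counts of these 5. Scn10a, a sodium channel of pain-sensing neurons, had 0.346, 0.761, 0.0938 and 25.3 CPM in epicenter libraries 1 to 4 and 0, 0.0552, 0 and 0.0860 CPM in uninjured libraries 1 to 4. Scn11a, Tmem233, Trpv1 and Avil had 13.5, 12.5, 6.37 and 24.4 CPM in epicenter 4; in the other epicenter libraries Avil had at most 3.24 CPM and the first 3 at most 0.402 CPM. Without epicenter 4, Scn11a and Trpv1 were no longer called (log2 fold change 0.59 and 0.79, adjusted p = 0.248 and 0.0679), and Scn10a, Tmem233 and Avil stood at 3.44, 2.95 and 1.91 in place of 7.48, 6.62 and 3.52; without uninjured 4 Scn10a stood at 8.33. Under limma-voom with all libraries Scn10a, Scn11a, Tmem233 and Trpv1 were not called (adjusted p = 0.0896, 0.183, 0.0552 and 0.101). The sum of the list, of which Nefh (called lower) makes up most, was 377 to 802 CPM at the epicenter and 1120 to 1200 CPM in uninjured cord. The part that these cells have in the differences below was not tested.

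Most measured genes differed. Of 23769 genes tested, edgeR's quasi-likelihood test called 14565 at a Benjamini-Hochberg adjusted p under 0.05, which is 61.3%, with 7593 higher at the epicenter (31.9%) and 6972 lower (29.3%). The direction counts were close but the sizes were not: the median rise was 1.03 on the log2 scale and the median fall -0.72. At least 2-fold higher were 3897 genes (16.4%) and at least 2-fold lower 2050 (8.62%); at 4-fold the counts were 2015 (8.48%) and 110 (0.463%), and at 16-fold 594 (2.5%) and 6 (0.0252%). The 2015 genes that were at least 4-fold higher held 8.03 to 9.23% of all scaled counts in epicenter libraries and 0.874 to 0.923% in uninjured libraries, a description of genes chosen by that difference. Counts of 0 over all 4 uninjured libraries were found for 36 tested genes, which passed the filter on low counts only through groups where they were present and so had to differ. Genes with only a few uninjured counts, too few to pass from uninjured libraries alone, entered in the same way. Their rise, too, was largely fixed beforehand.

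**Figure D1:**
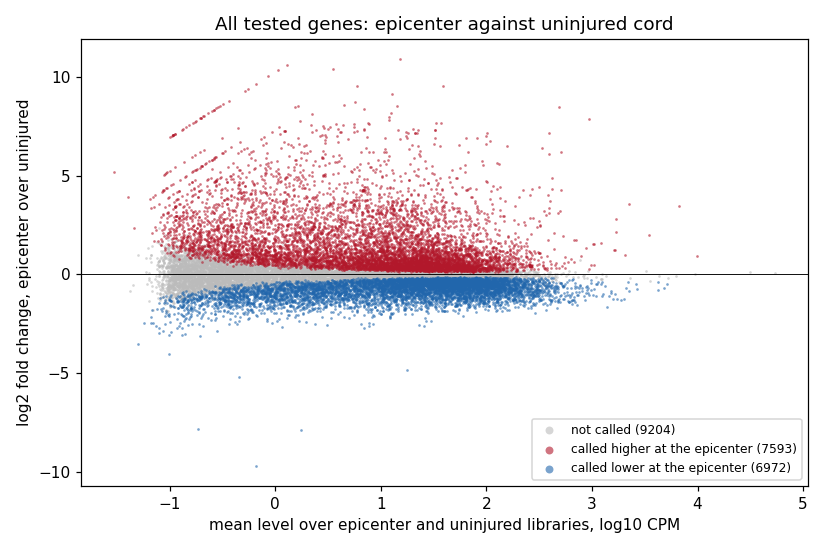
Each point is 1 of the 23769 tested genes, with its mean level over the epicenter and uninjured libraries (log10 CPM) across and its log2 fold change, epicenter over uninjured, upward; red points were called higher (7593) and blue points called lower (6972) at an adjusted p under 0.05. The 594 rises of at least 16-fold lie above 4 on the vertical axis, and the 6 falls of that size below -4.

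Kinds of gene were called in unequal shares. Among 16823 protein-coding genes 36.1% rose and 31.9% fell, while among 3831 long noncoding genes 22.6% rose and 26.6% fell. Of 22 immunoglobulin and T cell receptor segments, which mark lymphocytes and whose reads can be shared between near-identical copies, 16 rose and 1 fell (median 3.21). Protein-coding genes that rose spanned a median of 16.6 kb of genome and those that fell 40.8 kb, against 22.6 kb over all those tested. Of 935 genes of 200 kb or more, 16.1% rose and 66.2% fell (median log2 fold change -0.62), and of 4562 genes under 10 kb, 45.0% rose and 17.5% fell (median 0.23). The summed neuron markers given above fell with the long genes, and the part of cell type in this split by length was not tested.

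Promoter windows of the genes that rose most held fewer CG pairs than those of other genes. The windows, 300 bases around the annotated start with 250 before and 50 after it, came from RefSeq on GRCm38.p6, and 13728 tested genes had one, 380 of the 594 genes at least 16-fold higher among them. These 380 windows held a median of 4 CG pairs, against 16 in all 4804 genes called higher, 20 in 4295 called lower and 18 in all 13728, and 63.9% of them had 5 or fewer CG pairs (18.3% of all tested). To show the 2 kinds, windows of 4 genes among the largest rises and of 1 among the largest falls are given 5′ to 3′ on the strand of the gene. Capitals mark GAGGAAGT (bound by ETS factors of the PU.1 kind), GAAANNGAA (the interferon response element) and TGANTCA (AP-1), in either orientation, and the GC box GGGCGG.
Mmp12, macrophage elastase, plus strand, chr9:7344147-7344446, 0 CG pairs: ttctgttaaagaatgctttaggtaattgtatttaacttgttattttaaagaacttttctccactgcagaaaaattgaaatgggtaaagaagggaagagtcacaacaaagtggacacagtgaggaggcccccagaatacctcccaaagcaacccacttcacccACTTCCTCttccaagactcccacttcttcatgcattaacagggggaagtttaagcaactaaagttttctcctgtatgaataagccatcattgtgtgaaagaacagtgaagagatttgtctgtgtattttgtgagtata
Mmp13, collagenase 3, plus strand, chr9:7272264-7272563, 1 CG pair: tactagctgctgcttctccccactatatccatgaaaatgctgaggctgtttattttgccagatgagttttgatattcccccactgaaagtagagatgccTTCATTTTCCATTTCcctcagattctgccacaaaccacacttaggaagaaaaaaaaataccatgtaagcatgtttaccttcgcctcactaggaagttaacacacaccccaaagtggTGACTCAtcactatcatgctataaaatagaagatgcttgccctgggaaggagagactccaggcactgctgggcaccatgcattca
Gpnmb, plus strand, chr6:49036268-49036567, 9 CG pairs: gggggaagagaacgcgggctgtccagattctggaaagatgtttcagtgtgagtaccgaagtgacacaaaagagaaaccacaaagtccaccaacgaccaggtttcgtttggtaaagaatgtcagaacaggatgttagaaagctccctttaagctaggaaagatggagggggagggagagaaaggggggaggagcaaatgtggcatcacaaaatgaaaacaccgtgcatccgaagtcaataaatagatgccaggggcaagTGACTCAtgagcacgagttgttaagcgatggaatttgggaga
Acp5, minus strand, chr9:22135697-22135996, 4 CG pairs: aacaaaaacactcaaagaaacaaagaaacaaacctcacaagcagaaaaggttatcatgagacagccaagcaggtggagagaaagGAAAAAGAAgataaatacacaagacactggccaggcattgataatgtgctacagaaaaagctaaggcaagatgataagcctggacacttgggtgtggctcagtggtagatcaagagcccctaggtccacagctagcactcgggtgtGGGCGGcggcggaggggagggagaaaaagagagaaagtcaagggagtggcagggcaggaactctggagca
Stxbp5l, minus strand, chr16:37384909-37385208, 18 CG pairs: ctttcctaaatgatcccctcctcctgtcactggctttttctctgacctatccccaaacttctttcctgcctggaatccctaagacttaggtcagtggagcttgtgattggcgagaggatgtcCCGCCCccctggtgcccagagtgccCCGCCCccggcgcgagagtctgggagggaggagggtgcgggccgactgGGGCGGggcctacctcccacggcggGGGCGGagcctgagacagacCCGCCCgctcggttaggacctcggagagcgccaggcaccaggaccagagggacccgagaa

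The 4 windows of risen genes hold 1 GAGGAAGT (Mmp12), GAAANNGAA in Mmp13 (2 matches) and Acp5 (1) and 1 TGANTCA each in Mmp13 and Gpnmb, while GC boxes number 1 in the Acp5 window and 5 in the Stxbp5l window. Over the 380 windows of the most risen genes, TGANTCA was found on either strand in 17.6%, against 7.26% of all risen genes, 4.59% of fallen genes, 5.7% of the 13728 tested genes and 7.93% of the 27025 promoters in the table. GAGGAAGT stood at 8.68, 4.35, 2.0, 3.01 and 3.28% of the same 5 sets, and GAAANNGAA at 15.0, 9.01, 6.4, 7.33 and 8.57%. The TATA sequence TATAAA was in 20.5% of the most risen genes, 9.78% of risen, 6.47% of fallen, 8.31% of tested genes and 14.2% of all promoters. GGGCGG ran the other way, with 25.8, 56.6, 59.9, 56.8 and 35.9%, as did the cAMP response element TGACGTCA (0.789, 2.04, 3.38, 2.83 and 1.88%) and the E-box CACGTG (3.95, 9.22, 9.43, 9.21 and 7.24%), while CCAAT was in 35.0, 37.5 and 37.7% of the most risen, risen and fallen genes and in 37.9% of all promoters. The windows also differed in base composition (median 50.5% G and C in the most risen genes and 61.3% in fallen genes). The shares are not independent of it, both for motifs rich in C and G and for those rich in A and T, TATAAA and GAAANNGAA among them. These shares describe genes chosen by their change and carry no test, and a match of letters is not a bound site.

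The 12 largest rises, among genes of at least 5 CPM in the higher group whose libraries did not overlap, held bone resorption, matrix and lipoprotein genes. All but Gpnmb were too scarce in uninjured cord to pass the filter on low counts from uninjured libraries alone. They entered through injured groups, so a rise was largely fixed beforehand and their p-values add little. Atp6v0d2 (mm10 chromosome 4, 19876841 to 19922605), a subunit of the vacuolar proton pump of osteoclasts and macrophages, had 26.9, 25.8, 49.0 and 21.0 CPM in epicenter libraries 1 to 4. This was 9289 counts in all, against 4 counts over the 4 uninjured libraries, a ratio of 2170 with a 95% counting interval of 846 to 7950. Acp5, the tartrate-resistant phosphatase used as an osteoclast stain, had 17.3, 17.3, 42.7 and 22.5 CPM in epicenter libraries and 0.0162, 0.166, 0.0387 and 0.115 CPM in uninjured libraries (log2 fold change 8.17 ± 0.81, adjusted p = 1.24e-06). Both genes are members of the bone resorption program, and in both the epicenter 3 library was the highest. Mmp12 degrades elastin and had 27.9, 30.5, 38.8 and 17.6 CPM at the epicenter, against 0.0162, 0.110, 0.0258 and 0.143 CPM in uninjured cord (log2 fold change 8.56 ± 0.67, adjusted p = 3.13e-07). Mmp13 cleaves fibrillar collagen and had 9.24, 12.9, 42.7 and 36.3 CPM, against 0, 0.124, 0 and 0.0430 CPM (log2 fold change 9.16 ± 0.86, adjusted p = 8.53e-07; 10.63 without uninjured 2). Mmp13 was split among epicenter libraries, with libraries 3 and 4 high and 1 and 2 low, and Mmp12 was more even.

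Lipoprotein and scavenger genes were also among the 12. Apoc2, the activator of lipoprotein lipase, had 13.1, 10.8, 11.4 and 9.78 CPM at the epicenter and 7 counts over the uninjured libraries (ratio 457, counting interval 222 to 1140). Its neighbour Apoc4 had 13.0, 12.1, 11.7 and 10.6 CPM and 4 counts (ratio 840, 328 to 3090). Apoc2 shares 79.5% of its exonic bases with another gene model on the same strand, so its reads may be divided. Cd5l, a scavenger protein secreted by macrophages, had 13.6, 14.4, 19.2 and 7.94 CPM at the epicenter and 0.0647, 0.0552, 0 and 0.0430 CPM in uninjured cord (log2 fold change 8.40 ± 0.89, adjusted p = 2.27e-06). Cd200r4, of the CD200 receptor family, had 2163 counts against 1, a ratio of 2020 (362 to 79700). Gpnmb, a glycoprotein of lysosome-rich phagocytes, had 1084, 775, 1388 and 648 CPM at the epicenter and 1.78, 4.24, 2.22 and 2.61 CPM in uninjured cord (log2 fold change 8.49 ± 0.78, adjusted p = 8.11e-07). The remaining 3 are other membrane proteins. Slc47a1, an exporter of organic cations that is also a meningeal marker, had 57.0, 51.4, 81.4 and 119.6 CPM at the epicenter, against 0.0323, 0.235, 0.0516 and 0.0717 CPM (log2 fold change 9.58, or 10.48 without uninjured 2). The inward-rectifier potassium channel Kcnj15 had 2617 counts against 6, a ratio of 407 (187 to 1110). Mpzl2, an adhesion protein related to myelin protein zero, had 27.0, 15.7, 25.9 and 25.9 CPM against 0.0323, 0.179, 0.0516 and 0.100 CPM. Summed markers of microglia and macrophages were 2040 to 3010 CPM at the epicenter and 165 to 179 CPM in uninjured cord, and their part in these rises was not tested.

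**Figure D2:**
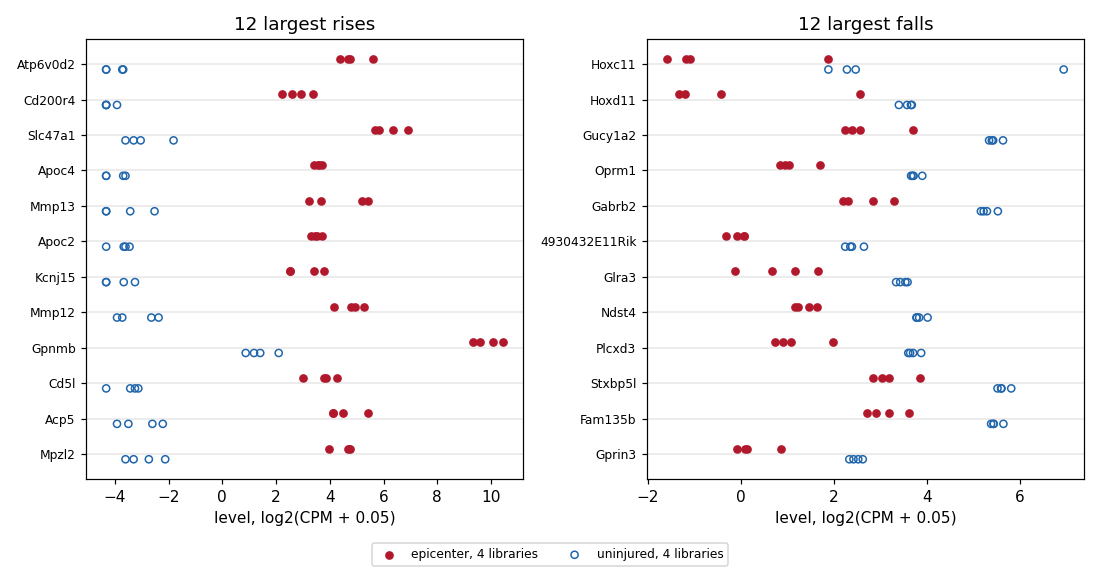
Each row is a gene and each point 1 library, as log2(CPM + 0.05); filled red points are epicenter libraries and open blue points uninjured libraries, with the 12 largest rises on the left and the 12 largest falls on the right. The gap between the groups is wider for the rises than for the falls, and uninjured 4 in Hoxc11 and epicenter 2 in Hoxc11 and Hoxd11 lie away from their groups.

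Homeobox genes of the caudal cord, Hoxc11 and Hoxd11, led the 12 largest falls. Hoxd11 had 0.691, 5.86, 0.349 and 0.386 CPM in epicenter libraries and 10.5, 12.8, 12.6 and 11.9 CPM in uninjured libraries, with epicenter 2 far above the other 3 but below every uninjured library (log2 fold change -2.71 ± 0.70, adjusted p = 0.00373; -4.63 without epicenter 2). Hoxc11 had 0.393, 3.62, 0.282 and 0.416 CPM at the epicenter and 3.64, 4.81, 5.49 and 124 CPM in uninjured cord, where the 4th library alone set the mean. The log2 fold change was -4.86 with all libraries and -1.98 without uninjured 4; without epicenter 2 it was -6.56. The 6 genes called at least 16-fold lower were Hoxa13, Hoxb13, Hoxc11, Hoxc12, Hoxc13 and Myo3a. Of these Hoxc13 (0 counts against 377) and Hoxa13 (0 against 104) were at least 135-fold and 37.2-fold lower when set against 3 counts over the epicenter libraries, and Myo3a had 3 counts against 53 (uninjured over epicenter 18.9, counting interval 6.14 to 94.8). The uninjured piece reaches sacral levels that the 3 mm epicenter piece does not, so position along the cord and injury cannot be told apart for these genes. The same limit holds for any other gene whose level varies along the cord.

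The other 10 included 3 receptor genes. Oprm1, the mu opioid receptor (mm10 chromosome 10, 6758506 to 7038198), had 1.87, 1.75, 3.22 and 1.99 CPM at the epicenter and 14.9, 12.9, 12.6 and 13.1 CPM in uninjured cord (log2 fold change -2.60 ± 0.57, adjusted p = 0.00116). Gabrb2, a subunit of the GABA-A receptor, had 7.16, 4.54, 9.83 and 4.91 CPM, against 46.2, 39.3, 35.9 and 37.4 CPM, and Glra3, a glycine receptor subunit, 1.55, 2.21, 3.11 and 0.861 CPM, against 10.7, 12.0, 11.6 and 10.1 CPM. Epicenter 3 was the highest epicenter library for all 3 receptors, and the groups did not overlap. Gucy1a2, a subunit of the guanylate cyclase that nitric oxide activates, had 5.88, 5.21, 13.1 and 4.69 CPM at the epicenter and 49.9, 42.2, 43.1 and 40.6 CPM in uninjured cord (log2 fold change -2.61 ± 0.44, adjusted p = 1.40e-04). Stxbp5l, a tomosyn that restrains vesicle fusion, had 9.09, 8.14, 14.4 and 7.11 against 56.5, 48.5, 48.8 and 46.0 CPM, and Ndst4, which modifies heparan sulfate, 2.19, 3.06, 2.29 and 2.72 against 16.2, 13.7, 13.8 and 14.2 CPM. Plcxd3, Fam135b, Gprin3 and the pseudogene 4930432E11Rik had log2 fold changes of -2.48, -2.35, -2.23 and -2.54. Epicenter 3 was highest in Gucy1a2 and Stxbp5l as well, although its sum of neuron markers, 1220 CPM, was the lowest of the 4.

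Some of the largest shifts in the amount of RNA were not large folds. Apoe, the main lipid carrier of the cord (mm10 chromosome 7, 19696109 to 19699166), gained most in CPM, a scale that is not per length. It had 12308 ± 1149 CPM at the epicenter and 1097 ± 67.3 CPM in uninjured cord (for CPM, mean ± SD, n = 4 libraries each, here and below). Its log2 fold change was 3.49 ± 0.38 (± standard error, adjusted p = 2.89e-06). Lars2 came next, with 13116 ± 4761 CPM at the epicenter and 6829 ± 475 CPM in uninjured cord (log2 fold change 0.94 ± 0.23, adjusted p = 0.00252), in a row that takes reads of ribosomal RNA type. Gfap, the filament of astrocytes, had 5488 ± 740.3 CPM at the epicenter and 1389.8 ± 44.8 CPM in uninjured cord. The lysosomal protease Ctsd had 4102 ± 762 CPM at the epicenter and 346 ± 9.22 CPM in uninjured cord. Another, Ctsb, had 2791 ± 407 CPM at the epicenter and 623 ± 15.5 CPM in uninjured cord. Apod is a lipocalin made by glia and fibroblasts, and had 2955 ± 299.9 CPM at the epicenter and 420.3 ± 22.4 CPM in uninjured cord. For Lyz2, lysozyme, the levels were 1859.7 ± 308 CPM at the epicenter and 7.90 ± 2.83 CPM in uninjured cord, and for Sparc, a matrix protein, 2317 ± 63.2 CPM at the epicenter and 963 ± 19.3 CPM in uninjured cord. Yam1 and AY036118, which also take reads of ribosomal RNA type, were not called. For Ctsd 34.4% of exonic bases also lie in another model of the same strand, which leaves its level uncertain.

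Losses of RNA mass were led by Meg3, a maternally expressed long noncoding RNA of neurons, with 3124 ± 486 CPM at the epicenter and 5418 ± 91.8 CPM in uninjured cord (log2 fold change -0.79 ± 0.29, adjusted p = 0.0273), a call that ended without epicenter 1 or epicenter 3 (adjusted p = 0.0598 and 0.073). Neuronal cytoskeleton and transport genes followed. The medium neurofilament Nefm had 1195 ± 344 CPM at the epicenter and 2810.5 ± 236 CPM in uninjured cord, and Kif5a, the kinesin heavy chain of axonal transport, 674 ± 112 CPM at the epicenter and 2091 ± 38.3 CPM in uninjured cord. Map1b, which binds microtubules, had 1037 ± 197 CPM at the epicenter and 2432 ± 159 CPM in uninjured cord. Snap25, of the vesicle fusion complex, had 928 ± 207 CPM at the epicenter and 2234 ± 92.8 CPM in uninjured cord. Scd2, a fatty acid desaturase, had 1999 ± 163 CPM at the epicenter and 3347 ± 72.5 CPM in uninjured cord. Gm13340 and Gm28439, nuclear copies of mitochondrial sequence, fell by 0.48 and 0.86 on the log2 scale; the 37 mitochondrial chromosome rows hold 0 counts in all 16 libraries.

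In contrast, 1168 genes (4.91% of those tested) had a 95% interval of the log2 fold change that lay within -0.25 to 0.25, which bounds the difference and not only fails to show one. The 10 of highest level were Eef2, Cnp, Srrm2, S100b, Ttyh1, Pink1, Nisch, Ddx17, Csrp1 and Pygb. Eef2, which moves the ribosome along the message, had 1272 ± 67.9 CPM at the epicenter and 1229 ± 31.9 CPM in uninjured cord, with an interval of -0.12 to 0.21. Cnp, an enzyme of the myelin sheath, had 822 ± 96.3 CPM at the epicenter and 843 ± 13.7 CPM in uninjured cord (-0.24 to 0.17). S100b, a calcium-binding protein of astrocytes and oligodendrocytes, had 543 ± 27.6 CPM at the epicenter and 518 ± 8.01 CPM in uninjured cord (-0.09 to 0.23). With epicenter 3 left out in a fit of the compared libraries alone, an alternative added after seeing the data, S100b was called higher (log2 fold change 0.13, adjusted p = 0.021).

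Gene lists by function, 41 in all and beyond the usual markers of cell type, were then read member by member. Each list is described by its counts of called members and its median log2 fold change. Beside them stand the 31.9% and 29.3% of all tested genes called higher and lower and the median of all genes, 0.0032. Members nearly absent from uninjured cord passed the filter on low counts only through other groups, so their rise was largely fixed beforehand.

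**Figure D3:**
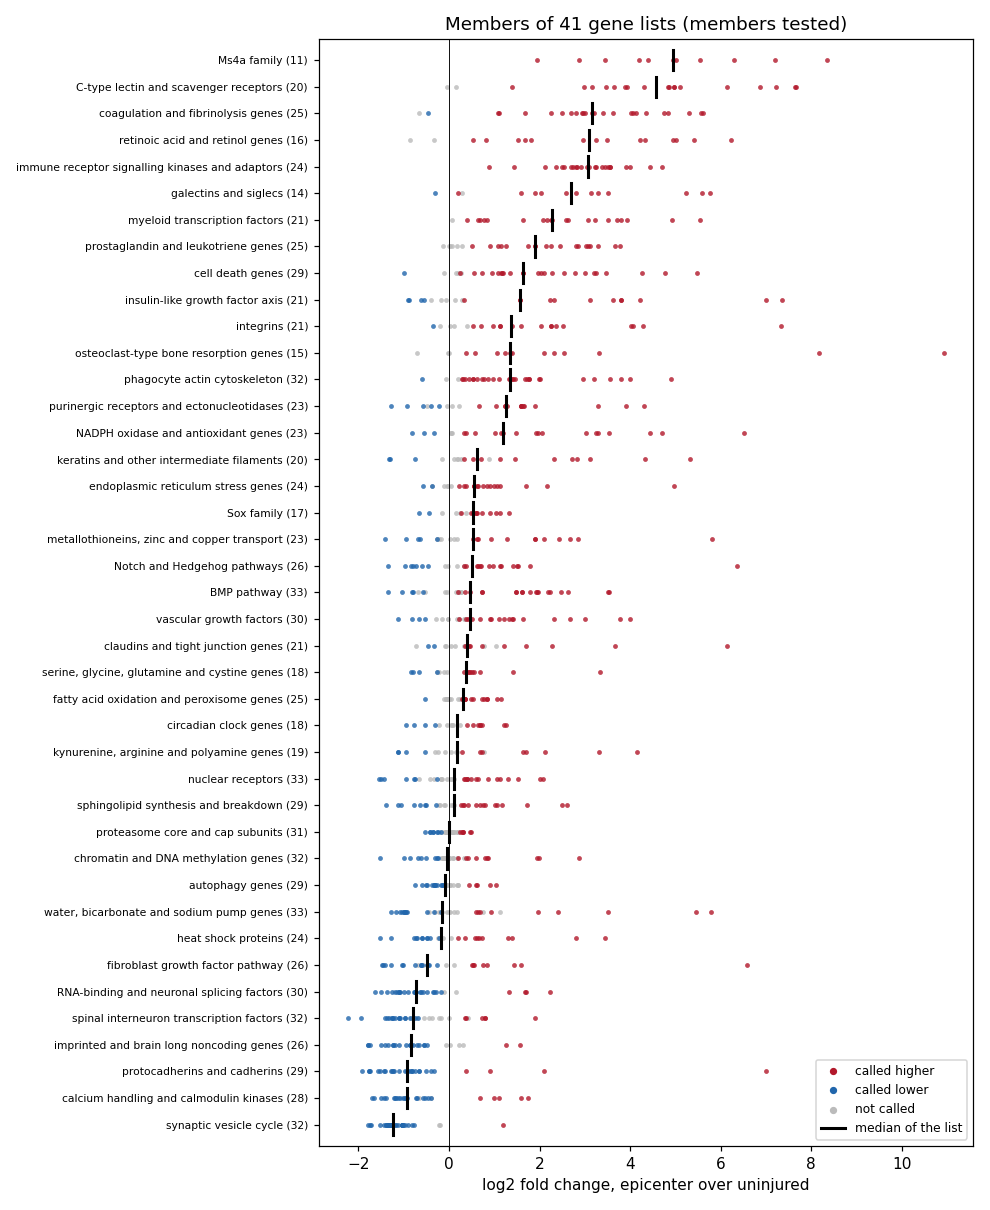
Each row is 1 of the 41 lists with its number of tested members, and each point a member at its log2 fold change, epicenter over uninjured; red points were called higher, blue points lower, grey points not called, and the black bar is the list's median. Medians run from -1.23 for the synaptic vesicle cycle to 4.95 for the Ms4a family.

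Genes by which myeloid cells sense, adhere and signal rose almost throughout. All 24 tested kinases and adaptors of immune receptors were higher (median 3.07). So were all 11 of the Ms4a family of membrane proteins (median 4.95). Ms4a8a had no count in uninjured cord and was at least 48.5-fold higher against 3 counts over that group. Ms4a8a, Ms4a2, Ms4a4a and Ms4a14 had at most 0.115 CPM in any uninjured library. Ms4a4b, Ms4a4c and Ms4a1 had at most 0.143, 0.207 and 0.469 CPM there, and less in most uninjured libraries. None of these members could pass the filter on low counts from uninjured libraries alone. They entered with the help of injured groups, so their rise was largely fixed beforehand and adds little to the count. Tyrobp, the adaptor (DAP12) that couples activating receptors to Syk, had 223, 199.6, 204 and 156 CPM in epicenter libraries and 7.18, 8.66, 7.53 and 6.71 CPM in uninjured libraries (log2 fold change 4.70 ± 0.43, adjusted p = 7.92e-07). Fgr, a Src-family kinase, and Blnk, an adaptor downstream of Syk, rose by 4.44 and 4.00, while Pik3cd, a catalytic subunit of phosphoinositide 3-kinase, had the smallest rise of the list (0.88, 41.3 ± 2.73 CPM at the epicenter and 22.4 ± 1.56 CPM in uninjured cord). Ms4a7, a marker of macrophages, had 35.0, 36.8, 43.1 and 29.0 CPM against 0.226, 0.345, 0.232 and 0.172 CPM (log2 fold change 7.19 ± 0.68, adjusted p = 9.65e-07). Ms4a14 and Ms4a4a rose by 6.29 and 5.53.

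Surface lectins and scavenger receptors rose in 18 of 20 tested cases and fell in none (median 4.57). Clec4d, a receptor for glycolipids of microbes and dying cells, had 7.10, 7.39, 8.42 and 7.17 CPM at the epicenter and 0.0647, 0.0276, 0 and 0.0574 CPM in uninjured cord (log2 fold change 7.65 ± 0.80, adjusted p = 1.96e-06). Msr1, the class A scavenger receptor for modified lipoprotein, and Clec4n, dectin-2, rose by 7.64 and 7.22, to 15.2 and 4.45 CPM. Scarb2, a lysosomal membrane protein, and Scarb1, the receptor for high-density lipoprotein, were not called, at -0.04 (95% interval -0.43 to 0.35) and 0.15 (-0.01 to 0.31); in a fit of the compared libraries without epicenter 3, Scarb2 was called lower and Scarb1 higher. Galectins and siglecs, which bind sugars, were higher in 12 of 14 cases (median 2.69). Lgals3, galectin-3 of activated phagocytes, had 188, 176, 208 and 148 CPM against 2.52, 3.46, 4.06 and 3.20 CPM (log2 fold change 5.76 ± 0.51, adjusted p = 6.39e-07). Cd22 rose by 5.58 and Siglec1, sialoadhesin, by 5.23. Mag, the siglec of the myelin sheath, was the member that fell (-0.30, 547 ± 71.6 CPM at the epicenter and 673 ± 22.4 CPM in uninjured cord), and it was not called without uninjured 4, epicenter 3 or epicenter 4.

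Integrins, the receptors for matrix and for other cells, rose in 16 of 21 cases (median 1.38), with the leukocyte chains ahead. Itgax, an alpha chain of phagocytes and dendritic cells, had 68.9, 64.4, 85.8 and 41.0 CPM at the epicenter and 0.372, 0.621, 0.335 and 0.272 CPM in uninjured cord (log2 fold change 7.34 ± 0.59, adjusted p = 3.69e-07). Itgal and Itgb2, the chains of LFA-1, rose by 4.29 and 4.07. The widely used fibronectin-receptor chains Itga5 and Itgb1 rose by 4.01 and 1.60. Itga3, a laminin receptor chain, fell (-0.36, 42.0 ± 3.90 CPM at the epicenter and 53.7 ± 2.97 CPM in uninjured cord). Itgav and Itgb8, which together activate latent TGF-beta, were not called (-0.20 and 0.02, intervals -0.57 to 0.18 and -0.39 to 0.43), but both were called lower in a fit of the compared libraries without epicenter 3, with 3 chains lower in all. Of the phagocyte actin list, 29 of 32 rose and 1 fell (median 1.34). Capg, a filament-capping protein of macrophages, had 107, 100.4, 107 and 94.3 CPM against 3.25, 3.70, 3.06 and 3.57 CPM. Myo1f and Arhgdib, both of blood cells, rose by 4.00 and 3.79, while Actb, present in every cell, rose by 0.62. Pls3, the plastin of non-blood tissues, fell by 0.59 on the log2 scale.

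Among 21 myeloid transcription factors 20 were higher (median 2.28). Runx1, of blood cell development, had 20.7, 20.3, 29.3 and 24.0 CPM at the epicenter and 1.36, 1.53, 1.59 and 1.69 CPM in uninjured cord (log2 fold change 3.93 ± 0.34, adjusted p = 5.90e-07). Its paralog Runx3 rose by 4.92 to 2.40 CPM, and Tfec, a macrophage relative of Mitf and Tfeb, by 5.54 to 1.41 CPM (6.15 without uninjured 1). Spi1, which encodes PU.1, rose by 3.51 and Irf8 by 3.72. Sall1, which in the brain marks resident microglia, was the member not called (53.9 ± 8.11 CPM at the epicenter and 51.2 ± 1.08 CPM in uninjured cord, interval -0.18 to 0.33).

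Bone resorption genes, chosen because osteoclasts and macrophages share a lineage, were higher in 12 of 15 cases (median 1.34). Besides Atp6v0d2 and Acp5, Ctsk, the cathepsin that degrades collagen, had 34.2, 42.2, 62.8 and 67.3 CPM at the epicenter and 4.69, 5.63, 5.57 and 4.76 CPM in uninjured cord (log2 fold change 3.32 ± 0.31, adjusted p = 9.32e-07). The pump subunit Tcirg1 rose by 2.53. The fusion protein genes Dcstamp and Ocstamp were called higher (2.32 and 1.06) at 0.579 and 0.372 CPM, with the call of Ocstamp lost without uninjured 4 or epicenter 4, and Calcr, the calcitonin receptor of osteoclasts, and Oscar were not called, at 0.321 and 2.00 CPM at the epicenter. Of 8 markers of bone and cartilage 3 were called higher and 2 lower. Ibsp, bone sialoprotein, had 3.62, 5.82, 21.8 and 12.7 CPM at the epicenter and 0.0485, 0.110, 0.0516 and 0 CPM in uninjured cord (log2 fold change 7.65 ± 0.77, adjusted p = 1.49e-06; 8.29 without uninjured 2). Bglap, osteocalcin, had 1.82, 3.72, 10.7 and 3.21 CPM, against 0.0647, 0.0138, 0.0258 and 0.0143 CPM (log2 fold change 7.33 ± 1.03, adjusted p = 2.79e-05; 6.59 without epicenter 3, 7.94 without uninjured 1), with epicenter 3 highest for both and the groups apart. Col10a1, a cartilage collagen, rose by 2.61, while Acan, aggrecan, and Dmp1 were lower (-1.45 and -0.64). These markers summed to 34.7, 36.1, 66.5 and 49.8 CPM in epicenter libraries 1 to 4 and 53.5 to 57.8 CPM in uninjured libraries. Acan, which fell, had the largest share of the uninjured sum. The sum thus does not show the rises of Ibsp, Bglap and Col10a1 and cannot tell whether bone markers were raised. The part of bone and cartilage markers in the rise of the bone resorption genes was not tested.

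Oxidant-making enzymes rose and some enzymes against oxidants fell. Of the NADPH oxidase and antioxidant list 17 of 23 members rose and 3 fell (median 1.19). Cybb, the catalytic subunit of the phagocyte oxidase, had 70.3, 71.0, 97.8 and 51.8 CPM at the epicenter and 0.356, 1.23, 0.657 and 0.903 CPM in uninjured cord (log2 fold change 6.52 ± 0.56, adjusted p = 5.58e-07). Its partners Cyba and Ncf4 rose by 4.71 and 4.43. The peroxide-removing enzymes Gpx1 and Prdx6 rose by 1.97 and 1.93. Sod2, the superoxide dismutase of mitochondria, fell, with 96.5, 97.0, 79.4 and 109.9 CPM at the epicenter against 178, 166, 158 and 168 CPM (log2 fold change -0.81 ± 0.17, adjusted p = 7.09e-04). Both subunits of glutamate-cysteine ligase, which makes glutathione, also fell (Gclm -0.56, Gclc -0.33). The cytosolic Sod1 was not called (0.06, interval -0.21 to 0.32) but was called higher in a fit of the compared libraries without epicenter 3.

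Of 25 genes of prostaglandins and leukotrienes 19 rose and none fell (median 1.89). Ptgs2, the inducible cyclooxygenase, had 9.86, 6.25, 11.4 and 10.3 CPM at the epicenter, against 0.469, 0.910, 1.07 and 0.516 CPM in uninjured cord (log2 fold change 3.66 ± 0.34, adjusted p = 8.14e-07). The synthase Ptges that follows it rose by 3.30, and Ptgir, the prostacyclin receptor, by 3.78. Alox5ap, which presents arachidonic acid to 5-lipoxygenase, rose by 2.81. The cytosolic synthase Ptges3 and the leukotriene hydrolase Lta4h were not called, at 0.01 (interval -0.14 to 0.17) and 0.07 (-0.05 to 0.20). Ptgds, the prostaglandin D synthase of meninges and glia, rose with 1044 ± 176 CPM at the epicenter and 311 ± 4.54 CPM in uninjured cord (log2 fold change 1.75 ± 0.29, adjusted p = 1.20e-04).

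Receptors and enzymes of extracellular nucleotides went both ways. P2ry6, the UDP receptor of phagocytic microglia, had 21.7, 19.05, 19.5 and 14.3 CPM at the epicenter and 1.21, 1.39, 1.06 and 1.29 CPM in uninjured cord (log2 fold change 3.91 ± 0.38, adjusted p = 1.10e-06). P2ry2 rose by 3.28, and Entpd1 (CD39), which breaks ATP down on microglia and vessels, rose by 1.91. Entpd3, an enzyme of the same family found on neurons, fell (-1.27, 21.2 ± 3.18 CPM at the epicenter and 51.3 ± 0.935 CPM in uninjured cord), and so did the adenosine receptor Adora1 (-0.41). In the list 14 of 23 rose and 5 fell (median 1.25).

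Genes of coagulation and fibrinolysis rose in 23 of 25 cases and fell in 1 (median 3.15). Serping1, the C1 inhibitor, had 258, 242, 259.9 and 276 CPM at the epicenter and 4.32, 6.32, 4.81 and 5.89 CPM in uninjured cord (log2 fold change 5.60 ± 0.51, adjusted p = 7.03e-07). Plaur, the urokinase receptor, rose by 5.30, with its ligand Plau at 4.84. F2r, the thrombin receptor, fell by 0.46 on the log2 scale, and the count of fallen members was 2 in place of 1 without below 3.

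Cell death genes rose in 24 of 29 cases (median 1.63). Bcl2a1b, an anti-apoptotic protein of blood cells whose gene shares 49.1% of its exonic bases with a model on the same strand, rose by 5.47, and its near-identical copy Bcl2a1d by 4.77; reads may be split between them. Casp4, the caspase that senses bacterial lipopolysaccharide, had 8.71, 7.34, 10.2 and 8.08 CPM at the epicenter and 0.550, 0.469, 0.438 and 0.344 CPM in uninjured cord (log2 fold change 4.25 ± 0.36, adjusted p = 4.62e-07). Gsdmd, the pore protein it cleaves, rose by 3.20. Sarm1, the enzyme that executes axon degeneration in neurons, was the member that fell (17.2 ± 3.29 CPM at the epicenter and 34.3 ± 1.22 CPM in uninjured cord, log2 fold change -0.99 ± 0.27, adjusted p = 0.00519).

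Metal handling was mixed, with 12 of 23 higher and 5 lower (median 0.52; 8 lower without above 1 and below 3 together, and 9 in a fit of the compared libraries without epicenter 3). Steap4, a ferric and cupric reductase of the Steap family, had 16.8, 18.1, 25.4 and 13.6 CPM at the epicenter and 0.291, 0.455, 0.168 and 0.402 CPM in uninjured cord (log2 fold change 5.81 ± 0.54, adjusted p = 8.12e-07). Cp, ceruloplasmin, rose by 2.86, and Steap3 by 2.67. A relative, Steap2, fell (-1.41, 35.1 ± 1.39 CPM at the epicenter and 93.6 ± 9.86 CPM in uninjured cord). Of the metallothioneins Mt1 and Mt2 rose by 2.11 and 2.42 and the brain form Mt3 by 0.92.

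Enzymes of amino acid metabolism went both ways. The kynurenine, arginine and polyamine list had 8 higher and 4 lower of 19 (median 0.17; 2 lower without epicenter 1). Kynu, the kynureninase, had 1.60, 1.59, 1.97 and 1.01 CPM at the epicenter and 0.0970, 0.166, 0.0258 and 0.0574 CPM in uninjured cord (log2 fold change 4.15 ± 0.45, adjusted p = 2.62e-06). Arg1, arginase of alternatively activated macrophages, rose by 3.32 to 2.21 CPM, and Kmo by 2.13 to 1.04 CPM. Nos1, the neuronal nitric oxide synthase, fell by 1.13 and spermine synthase Sms by 1.13 on the log2 scale, and the inducible Nos2 was not called at 0.883 CPM at the epicenter and 0.857 CPM in uninjured cord (interval -0.57 to 0.66). Among amino acid genes 9 of 18 rose and 4 fell (median 0.38). The glutamine transporter Slc1a5 had 25.5, 29.4, 27.8 and 29.0 CPM against 2.99, 2.90, 2.49 and 2.77 CPM (log2 fold change 3.32 ± 0.19, adjusted p = 7.30e-08). The cystine transporter Slc7a11 rose by 1.42, and Asns, asparagine synthetase, fell (-0.84).

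Sphingolipid genes went both ways. Of 29 sphingolipid genes 14 rose and 8 fell (median 0.11). Hexa, a lysosomal hexosaminidase subunit, had 233, 195, 227 and 177 CPM at the epicenter, against 33.3, 34.4, 34.1 and 34.6 CPM in uninjured cord (log2 fold change 2.61 ± 0.35, adjusted p = 1.81e-05). Lysosomal Asah1 and Galc rose by 1.01 and 0.69, Smpd1, acid sphingomyelinase, was not called (-0.09, interval -0.24 to 0.06), and Sgpl1, which makes the last cut of sphingosine phosphate, rose by 1.72. Ugt8a and Fa2h, which build the galactolipids of myelin, fell (-1.07 and -0.65), and Asah2, a neutral ceramidase, fell most (-1.38, 35.9 ± 1.01 CPM at the epicenter and 93.7 ± 8.50 CPM in uninjured cord). Fatty acid oxidation genes rose in 14 of 25 cases by small steps (median 0.30). Acaa2, the last enzyme of mitochondrial oxidation, had 33.3, 36.7, 35.1 and 39.0 CPM, against 15.3, 16.7, 17.4 and 15.6 CPM (log2 fold change 1.15 ± 0.14, adjusted p = 6.23e-06). Acads rose by 1.05, and the peroxisomal transporter Abcd2 fell by 0.53 on the log2 scale. Cpt1b (0.85) shares 81.4% of its exonic bases with another model.

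Retinoic acid genes rose in 14 of 16 tested cases (median 3.10), from the carriers to the enzymes. Retinol is taken up by Stra6, oxidised by retinol and retinaldehyde dehydrogenases, carried by Crabp proteins and sensed by nuclear receptors. Stra6 had 98.3, 56.9, 89.3 and 95.2 CPM at the epicenter and 2.85, 2.22, 3.40 and 2.61 CPM in uninjured cord (log2 fold change 4.94 ± 0.43, adjusted p = 5.87e-07). Aldh1a3, which makes retinoic acid, had 66.3, 37.2, 60.6 and 44.1 CPM, against 1.50, 1.08, 0.889 and 1.45 CPM (log2 fold change 5.41 ± 0.53, adjusted p = 1.21e-06). Aldh1a2 rose by 3.48. Crabp2, a carrier that is also a meningeal marker, had 11.2, 9.91, 10.8 and 19.002 CPM, against 0.0647, 0.166, 0.322 and 0.100 CPM (log2 fold change 6.23 ± 1.01, adjusted p = 9.53e-05). The degrading enzyme Cyp26b1 rose by 1.80. Crabp1 was not called at -0.86 and was called lower in 9 alternatives, among them the fits without epicenter 2 and without below 3. Summed meningeal markers rose with these genes, as given above, and their part was not tested.

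Nuclear receptors were called higher in 14 and lower in 7 of 33 cases (median 0.12). Nr2f2 (COUP-TFII), of vessels and stroma, had 42.6, 38.9, 45.6 and 55.9 CPM at the epicenter and 10.8, 10.8, 10.7 and 10.7 CPM in uninjured cord (log2 fold change 2.09 ± 0.17, adjusted p = 3.82e-07). The retinoic acid receptors Rarg, Rarb and Rara rose by 2.02, 1.12 and 0.87. Esrrg, of motor neurons and other oxidative cells, had 27.6, 25.5, 23.8 and 29.4 CPM, against 87.3, 80.5, 70.9 and 72.7 CPM (log2 fold change -1.55 ± 0.31, adjusted p = 6.05e-04). The glucocorticoid receptor Nr3c1 was not called, with 89.1 ± 17.7 CPM at the epicenter and 87.0 ± 3.42 CPM in uninjured cord (interval -0.25 to 0.32).

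**Figure D4:**
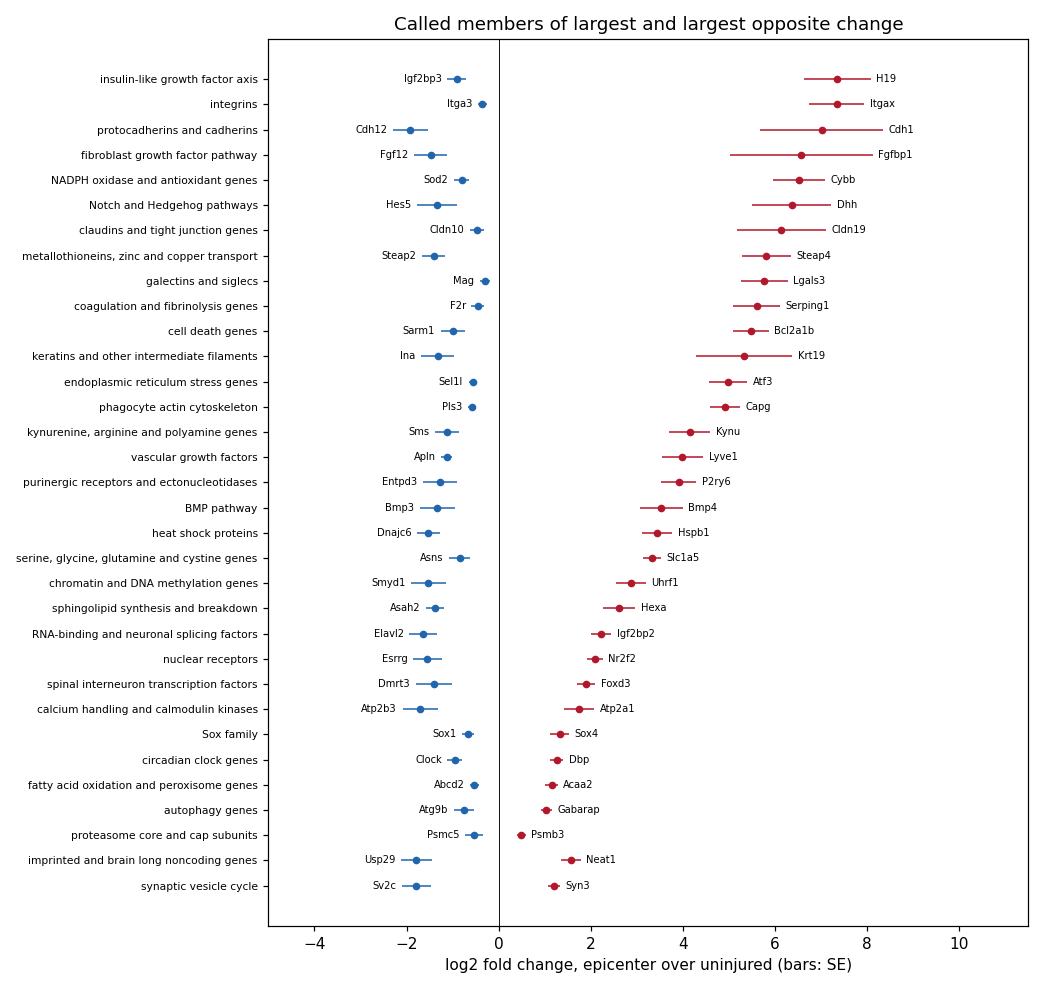
For each list with calls in both directions whose 2 such members are described here, the called member of largest change and the called member of largest opposite change, of those with at least 1 CPM in the higher group, stand at their log2 fold change, epicenter over uninjured, with bars of 1 SE; red is higher and blue lower. Rises reach 7.35 (H19) where the opposite member lies between 0 and -2, and the last rows, imprinted genes and the synaptic vesicle cycle, show their exceptions Neat1 and Syn3 on the higher side.

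Fibroblasts are a source of several growth factors, and their markers summed to 2450 to 3580 CPM at the epicenter and 94.2 to 112 CPM in uninjured cord, and their part in the growth factor genes below was not tested. In the insulin-like growth factor axis 12 of 21 rose and 4 fell (median 1.57). Igf1 rose by 3.80 and Igf2 had 203, 143, 226 and 276 CPM at the epicenter against 11.3, 12.5, 9.93 and 11.9 CPM in uninjured cord (log2 fold change 4.21 ± 0.84, adjusted p = 5.37e-04), with the limit that 64.5% of its exonic bases lie in another model on the same strand. Igfbp6, a binding protein that prefers IGF2, had 204, 149, 157 and 271 CPM, against 1.20, 2.14, 1.22 and 1.51 CPM (log2 fold change 7.01 ± 1.02, adjusted p = 3.62e-05). H19, the noncoding RNA of the Igf2 locus, had 46.8, 47.2, 66.5 and 100.1 CPM, against 0.162, 0.359, 0.490 and 0.559 CPM (log2 fold change 7.35 ± 0.73, adjusted p = 1.29e-06). The receptor Igf1r fell (-0.55, 25.7 ± 4.52 CPM at the epicenter and 37.6 ± 0.862 CPM in uninjured cord), as did Igf2bp3 (-0.91), a messenger-binding protein whose paralog Igf2bp2 rose by 2.23.

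Bone morphogenetic proteins and their inhibitors rose in 19 of 33 cases and fell in 5 (median 0.47). The ligand Bmp4 had 9.26, 7.54, 9.77 and 14.9 CPM at the epicenter and 0.695, 0.979, 0.967 and 0.932 CPM in uninjured cord (log2 fold change 3.53 ± 0.46, adjusted p = 1.43e-05). Bmp5 rose by 2.62, with 46.7% of its exonic bases overlapped on the opposite strand. Follistatin, Fst, which binds activins and BMPs, rose by 3.51 to 2.61 CPM. The target genes Id1 and Id3 rose by 1.79 and 2.48 and the inhibitory Smad6 by 1.95, while the type II receptor Bmpr2 (-0.79) and the ligand Bmp3 (-1.34) fell.

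Fibroblast growth factor genes went down more often than up, 14 of 26 against 8 (median -0.48). Those that fell include the intracellular FGF homologous factors of neurons, Fgf12 (48.6, 49.0, 40.9 and 59.7 CPM at the epicenter, 154, 139.7, 129 and 126 CPM in uninjured cord), Fgf14 (-1.41) and Fgf13 (-1.04), and the glial receptors Fgfr2 and Fgfr3 (-0.59 and -0.46). Among those that rose, Fgf7, a stromal ligand, stood at 1.59, Fgf2 at 1.43, and Fgfbp1, which releases FGFs from matrix, at 4.33, 3.48, 3.47 and 4.16 CPM against 0.0323, 0.0828, 0.0387 and 0 CPM (log2 fold change 6.57 ± 1.54, adjusted p = 0.00190; 7.24 without uninjured 2).

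Vascular growth factors rose in 18 of 30 cases and fell in 4 (median 0.47). Lyve1, a hyaluronan receptor of lymphatic vessels and border macrophages, rose by 3.99 to 3.08 CPM. Pdpn, podoplanin of stroma and lymphatics, had 43.3, 40.8, 47.2 and 41.0 CPM at the epicenter and 4.85, 5.44, 5.03 and 6.12 CPM in uninjured cord (log2 fold change 3.01 ± 0.31, adjusted p = 1.82e-06). Angptl4 rose by 3.78. Vegfa, made largely by glia in intact cord, fell (53.4 ± 0.873 CPM at the epicenter and 83.8 ± 6.01 CPM in uninjured cord, -0.65), as did Apln, apelin (-1.13), while the receptors Kdr and Flt1 were not called (intervals -0.56 to 0.51 and -0.52 to 0.22). Angpt2 rose by 2.68 and Angpt1 by 1.33.

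Notch and Hedgehog genes were called higher in 15 and lower in 7 of 26 cases (median 0.50). Dhh, the Hedgehog ligand that Schwann cells make, had 27.2, 15.9, 21.7 and 22.7 CPM at the epicenter and 0.0808, 0.483, 0.155 and 0.330 CPM in uninjured cord (log2 fold change 6.36 ± 0.85, adjusted p = 1.79e-05). On the opposite strand 25.2% of its exonic bases are overlapped, and summed Schwann cell markers rose with it (1790 to 2540 CPM at the epicenter, 138 to 214 CPM in uninjured cord). The Hedgehog effector and target Gli1 rose by 1.79, whereas Ptch1, also a target, fell (-0.46, 111 ± 13.7 CPM at the epicenter and 153 ± 3.22 CPM in uninjured cord), and Shh was not called (-0.10, interval -0.40 to 0.21). The receptor Notch2 rose by 1.51 and its target Hes1 by 1.53, and Hes5, a target in neural progenitors and astrocytes, fell (-1.34).

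Sox factors rose in 11 of 17 cases by small steps (median 0.54). Sox9, of astrocytes and cartilage, had 62.1, 56.0, 69.9 and 51.4 CPM at the epicenter and 25.3, 26.6, 31.0 and 27.2 CPM in uninjured cord (log2 fold change 1.12 ± 0.21, adjusted p = 3.06e-04). Sox7, of endothelium, rose by 0.91, and Sox4 by 1.32, with 54.6% of its exonic bases overlapped on the opposite strand. Sox10, of oligodendrocytes and Schwann cells, rose by 0.59 and Sox1 fell by 0.66 on the log2 scale. Claudins and other tight junction genes rose in 10 of 21 cases (median 0.40). Cldn19, of the Schwann cell sheath, had 49.9, 33.6, 39.8 and 57.1 CPM, against 0.210, 1.39, 0.245 and 0.688 CPM (log2 fold change 6.14 ± 0.96, adjusted p = 6.75e-05; 6.87 without uninjured 2). Cldn1, of epithelium and perineurium, had 34.7, 35.3, 37.1 and 41.6 CPM, against 2.54, 3.19, 3.15 and 2.83 CPM (log2 fold change 3.67 ± 0.32, adjusted p = 5.58e-07). Cldn5, of the vessel barrier, rose by 0.73 and Cldn11, of central myelin, by 0.45, while Cldn10 fell (-0.47), a call lost without epicenter 3 or epicenter 4.

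Keratins and other filaments were higher in 11 and lower in 3 of 20 (median 0.62). Nes, nestin of progenitors and reactive glia, had 135, 104, 141 and 119 CPM at the epicenter and 19.6, 18.4, 18.5 and 19.4 CPM in uninjured cord (log2 fold change 2.72 ± 0.28, adjusted p = 1.60e-06). Krt19 and Krt80, of epithelia, rose by 5.33 and 4.32 to 2.93 and 1.94 CPM. Ina, the neuronal alpha-internexin, fell (-1.33, 117 ± 18.4 CPM at the epicenter and 293 ± 8.78 CPM in uninjured cord), and Prph, peripherin of motor and sensory neurons, was not called (0.28, interval -0.34 to 0.90). Aqp1, a water channel, had 16.9, 18.3, 19.4 and 30.3 CPM at the epicenter and 0.404, 0.483, 0.322 and 0.330 CPM in uninjured cord (log2 fold change 5.78 ± 0.40, adjusted p = 1.76e-07), in a list of water, bicarbonate and sodium pump genes with 9 higher and 12 lower of 33 (median -0.15). In the same list Slc4a1, the anion exchanger of red blood cells, rose by 5.46, as summed red blood cell markers did, and Fxyd5 rose by 3.51. Aqp4, the astrocyte channel, had 979, 928, 1381 and 613 CPM, against 611, 597, 563 and 556 CPM, and was not called (0.75, adjusted p = 0.0551), though it was called higher in 10 of the 28 alternatives, among them the fit of the 8 compared libraries alone, DESeq2, library totals, the replicate block and the fits without epicenter 4, below 2 or below 3. Atp1b3, a sodium pump subunit, rose by 0.68.

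Neuronal machinery fell broadly. Of 32 genes of the synaptic vesicle cycle 29 fell and 1 rose (median -1.23). Sv2c, a vesicle glycoprotein, had 65.5, 58.1, 76.4 and 79.7 CPM at the epicenter and 263, 237, 226 and 243 CPM in uninjured cord (log2 fold change -1.79 ± 0.31, adjusted p = 1.90e-04). Sv2b and the priming factor Unc13c fell by 1.74 and 1.72 on the log2 scale. Vamp2 and Stx1a were not called (-0.23 and -0.20) and were called lower in 3 and 2 of the 28 alternatives, in both without below 3. Syn3 was called higher (1.20, 186 ± 14.0 CPM at the epicenter and 80.9 ± 1.86 CPM in uninjured cord). It is the host of Timp3, which lies inside it on the opposite strand. Of the exonic bases of Syn3, 14.1% are overlapped on the opposite strand, and with no strand in the counts reads there cannot be told apart. The part of this overlap in the rise was not tested.

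Calcium pumps, release channels and calmodulin kinases fell in 20 of 28 cases and rose in 5 (median -0.93). The neuronal plasma membrane pump Atp2b3 had 57.2, 57.2, 52.9 and 59.5 CPM at the epicenter and 191, 181, 179 and 186 CPM in uninjured cord (log2 fold change -1.70 ± 0.39, adjusted p = 0.00154). The ryanodine receptor Ryr2 fell by 1.65 on the log2 scale. Among the inositol trisphosphate receptors the neuronal Itpr1 fell by 0.47 while Itpr2 and Itpr3 rose by 0.68 and 1.59, and the store channel Orai1 rose by 1.11. Atp2a1, the pump of fast skeletal muscle, rose by 1.75 to 2.69 CPM, beside muscle markers that were higher in 5 of 8 cases, and 21.9% of its exonic bases are overlapped on the opposite strand.

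Cadherins and protocadherins, which sort neurons by adhesion, fell in 25 of 29 cases (median -0.93). Cdh12 had 3.09, 3.37, 3.19 and 3.12 CPM at the epicenter and 14.3, 12.4, 10.3 and 11.2 CPM in uninjured cord (log2 fold change -1.92 ± 0.38, adjusted p = 5.46e-04). The exceptions are cadherins of other tissues: Cdh1, E-cadherin of epithelia and also of Schwann cells, had 33.7, 23.8, 33.4 and 46.1 CPM, against 0.0485, 0.676, 0.103 and 0.215 CPM (log2 fold change 7.01 ± 1.34, adjusted p = 3.76e-04; 8.09 without uninjured 2), Cdh5 of endothelium rose by 2.11, Cdh19, of Schwann cells, by 0.91 and Cdh11, of stroma, by 0.38.

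RNA-binding and neuronal splicing factors fell in 24 of 30 cases and rose in 4 (median -0.74). Elavl2, a Hu protein of neurons, had 33.1, 35.0, 28.4 and 36.3 CPM at the epicenter and 119, 105, 93.8 and 95.5 CPM in uninjured cord (log2 fold change -1.64 ± 0.30, adjusted p = 3.08e-04). The polypyrimidine tract proteins went apart. Ptbp1, which represses neuronal exons in non-neuronal cells, had 113, 107, 112 and 99.5 CPM at the epicenter and 32.4, 33.0, 36.4 and 34.0 CPM in uninjured cord (log2 fold change 1.67 ± 0.17, adjusted p = 1.64e-06; 20.7% of its exonic bases are overlapped on the opposite strand). Ptbp3 of blood cells rose by 1.33, and Ptbp2 of neurons fell by 0.74 on the log2 scale. Imprinted and brain long noncoding genes fell in 20 of 26 cases (median -0.84), among them Usp29 (10.1, 11.2, 9.83 and 8.49 CPM at the epicenter, 34.7, 34.5, 34.1 and 33.4 CPM in uninjured cord), Peg10 (-1.79) and Zdbf2 (-1.74). Neat1, the scaffold RNA of paraspeckles, rose (1535 ± 173 CPM at the epicenter and 519 ± 21.9 CPM in uninjured cord, log2 fold change 1.56 ± 0.22, adjusted p = 2.74e-05), as did Nnat (1.25), and Malat1 was not called (interval -0.37 to 0.24). In a fit of the compared libraries without epicenter 3, 4 members were called higher.

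Transcription factors of spinal interneurons, which specify dorsal and ventral classes in the embryo and persist at low level, fell in 17 of 32 cases and rose in 6 (median -0.79); without epicenter 3 the count of fallen members was 10. Dmrt3, of commissural cells that shape gait, had 0.465, 0.512, 0.429 and 0.386 CPM at the epicenter and 1.16, 1.10, 1.11 and 1.41 CPM in uninjured cord (log2 fold change -1.41 ± 0.39, adjusted p = 0.00602). Evx1, of another commissural class, stood at -1.38, a call lost in 9 of the 28 alternatives, leaving out any 1 uninjured library or epicenter 1, 2 or 3 among them. Pax2, of inhibitory cells, fell by 1.10 on the log2 scale, with an adjusted p of 0.0595 without epicenter 3. Foxd3, a factor of the neural crest, rose (1.90, 7.17 ± 1.65 CPM at the epicenter and 1.93 ± 0.164 CPM in uninjured cord), as did the endothelial and blood factors Tal1 and Gata2 (0.80 and 0.73).

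Protein folding and disposal genes went both ways. Of 24 endoplasmic reticulum stress genes 17 rose and 2 fell (median 0.56; 1 fell without uninjured 2 or epicenter 1, 2 or 4). Atf3, an injury-induced factor of sensory neurons and other cells, had 35.3, 26.2, 33.2 and 22.4 CPM at the epicenter and 0.954, 1.06, 0.941 and 0.760 CPM in uninjured cord (log2 fold change 4.98 ± 0.41, adjusted p = 4.29e-07). Atf5 and Trib3 rose by 1.70 and 2.16, and Sel1l, of the degradation machinery, fell (-0.56). The chaperone Hspa5 rose by 0.38 and Hsp90b1 was not called (interval -0.26 to 0.16).

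Of 24 heat shock genes 10 rose and 11 fell (median -0.17). The 5 small heat shock proteins of the list rose. Hspb1 had 89.2, 79.5, 74.9 and 102 CPM at the epicenter and 7.83, 8.14, 7.81 and 8.02 CPM in uninjured cord (log2 fold change 3.44 ± 0.32, adjusted p = 8.68e-07), and the others rose, Hspb7 by 2.80, Hspb6 by 1.39, Hspb8 by 1.30 and Cryab by 0.72. Of the ATP-driven chaperones the inducible Hspa1a and Hspa1b rose by 0.36 and 0.66 (Hspa1a was not called without uninjured 2, 3 or 4 or epicenter 1 or 4). Others fell, Hsph1 by 1.27, Hsp90aa1 by 0.78 and Hspa8 by 0.61 on the log2 scale. Dnajc6, the neuronal auxilin that uncoats vesicles, fell most (-1.53, 82.5 ± 6.58 CPM at the epicenter and 238 ± 4.69 CPM in uninjured cord).

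Proteasome subunits had the narrowest range of the 41 lists (median -0.01, range of log2 fold change -0.54 to 0.49 over 31 members). Psmd8 and Psmb3 were higher (0.47 and 0.49) and Psmc5 lower (-0.54), the last a call lost without uninjured 2 or epicenter 3. The counts were 6 higher and 8 lower, with 10 higher without epicenter 3 and 15 in a fit of the compared libraries without it. Autophagy genes had 5 higher and 13 lower of 29 (median -0.08), 8 lower without uninjured 1, uninjured 2 or epicenter 1 or with scaling by library totals, and 9 higher in the fit of compared libraries without epicenter 3. Gabarap, which coats autophagosomes, rose (176 ± 18.8 CPM at the epicenter and 85.9 ± 3.00 CPM in uninjured cord, log2 fold change 1.04 ± 0.12, adjusted p = 5.69e-06). Its relatives Gabarapl1 and Gabarapl2 fell (-0.37 and -0.33), calls lost when 1 library was left out in 13 and 4 of 16 cases, epicenter 1 and epicenter 3 among them. Tfeb, the lysosome gene regulator, rose by 0.91, and Atg9b fell (-0.75).

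Clock genes had 8 higher and 4 lower of 18 (median 0.18). The activators Clock and Arntl (BMAL1) fell, Clock with 45.3, 43.1, 68.7 and 42.7 CPM at the epicenter and 107, 99.8, 90.6 and 89.9 CPM in uninjured cord (log2 fold change -0.95 ± 0.16, adjusted p = 1.46e-04) and Arntl by 0.77 on the log2 scale. The repressors Per1, Per2 and Per3 rose by 1.21, 0.69 and 0.74. Cry1 and Cry2 were not called (-0.04 and -0.22), though Cry2 was called lower in 7 of the 28 alternatives, among them the fits without epicenter 4, below 2 or below 3. The output factor Dbp rose by 1.26, with 18.0% of its exonic bases overlapped on the opposite strand. The labels give no hour of collection, so time of day cannot be told apart from injury here.

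Chromatin genes were called higher in 10 and lower in 9 of 32 cases, close to the shares of all genes (median -0.04). Uhrf1, which maintains DNA methylation in dividing cells, had 5.47, 4.32, 6.96 and 4.65 CPM at the epicenter and 0.825, 0.621, 0.902 and 0.574 CPM in uninjured cord (log2 fold change 2.87 ± 0.33, adjusted p = 4.07e-06). Hmgb2, also of dividing cells, rose by 1.95, and Prdm1, of plasma cells and macrophages, by 2.00. Tet1, a demethylase of DNA, fell by 1.00 on the log2 scale, and Smyd1, a methyltransferase of muscle, fell most (-1.53). The methyltransferase Dnmt3a was not called (interval -0.15 to 0.14).

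Epicenter libraries differed among themselves more than uninjured ones. Over 8907 genes of at least 20 CPM the median SD of log2 CPM was 0.134 at the epicenter and 0.0609 in uninjured cord. Among called genes of at least 20 CPM, as a mean of both groups, the widest ranges belonged to AA474408 (3.46, 42.7, 152 and 89.2 CPM in epicenter libraries 1 to 4, 4.19, 2.33, 2.49 and 24.8 CPM in uninjured libraries) and to a pair of neutrophil genes. S100a8 had 10.4, 37.5, 25.8 and 93.5 CPM at the epicenter, against 0.291, 0.372, 0.258 and 0.244 CPM (log2 fold change 7.16 ± 0.73, adjusted p = 1.60e-06). S100a9 had 16.0, 56.2, 41.3 and 144 CPM, against 0.631, 0.497, 0.400 and 0.602 CPM (log2 fold change 6.92 ± 0.74, adjusted p = 2.29e-06). The call of AA474408 (3.09) was lost without uninjured 1, 2 or 3 or epicenter 3, and its value was 4.58 without uninjured 4 and 2.41 without epicenter 3. For both S100 genes epicenter 4 was highest and epicenter 1 lowest, and every epicenter library was above every uninjured one; without epicenter 4 their log2 fold changes were 6.39 and 6.15. Calca, which encodes calcitonin gene-related peptide, had 90.9, 78.2, 64.6 and 243 CPM at the epicenter and 19.1, 23.6, 20.5 and 21.8 CPM in uninjured cord (log2 fold change 2.49 ± 0.39, adjusted p = 7.66e-05), again with epicenter 4 highest and with 1.87 in place of 2.49 without it. The ganglion markers given above were also highest there, and their part was not tested.

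In 6 other genes of this kind epicenter 3 was highest. Gm26917, Gm24270 and RP23-81C12.2, noncoding rows, had 201, 459, 843 and 275 CPM, 45.9, 66.5, 133 and 59.4 CPM and 73.7, 164, 303 and 94.6 CPM in epicenter libraries 1 to 4, highest in the library with the most ribosomal-type reads. Their levels in uninjured libraries 1 to 4 were 322, 106, 189.9 and 206, 25.8, 22.6, 37.0 and 28.7 and 111, 37.1, 67.0 and 75.7 CPM. Without epicenter 3 the log2 fold change of Gm26917 was 0.60 in place of 1.11 and it was no longer called (adjusted p = 0.25); that of RP23-81C12.2 was 0.61 in place of 1.13 (adjusted p = 0.241). Without uninjured 2 they stood at 0.89 and 0.91, also not called; over all 28 alternatives their calls were lost in 15 and 13. Lnpep, Fzd3 and ENSMUSG00000102049 were lower at the epicenter (-1.52, -0.83 and -0.78), with epicenter 3 nearest to the uninjured level; the calls of Fzd3 and ENSMUSG00000102049 were lost without epicenter 1, 2 or 4.

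**Figure D5:**
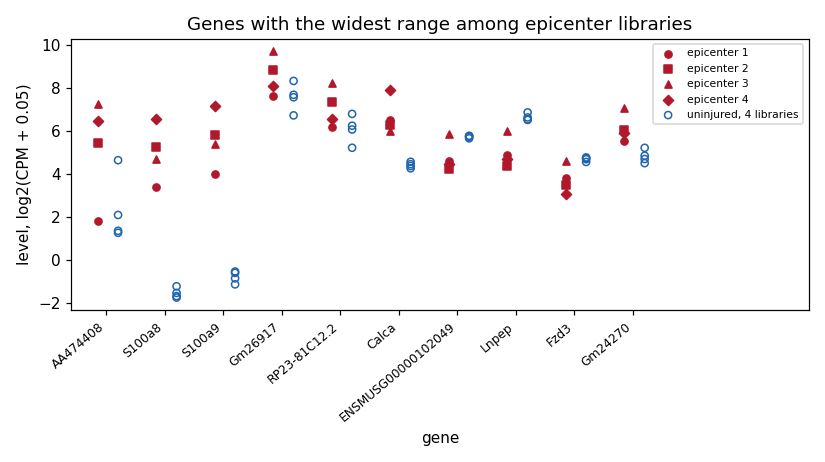
For the 10 called genes of at least 20 CPM with the widest range among epicenter libraries, filled red symbols give each epicenter library by its number and open blue circles the 4 uninjured libraries, as log2(CPM + 0.05). Epicenter 4 is highest for S100a8, S100a9 and Calca, and epicenter 3 for AA474408, Gm26917, RP23-81C12.2, ENSMUSG00000102049, Lnpep, Fzd3 and Gm24270.

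Against the neighbouring pieces of injured cord, which share the epicenter libraries with the comparison above, 12517 genes (52.7%) were called between epicenter and the piece above and 5062 (21.3%) between epicenter and the piece below. The labels do not say whether same-numbered pieces share an animal, and these fits treat them as separate. With the number as a block, 12730 and 4758 genes were called. Values of the same genes are given side by side. Gpnmb stood at 8.49 over uninjured cord, 4.79 over the piece above and 0.00 over the piece below (adjusted p = 0.999). Atp6v0d2 was 5.55 over the piece above and -0.39 over the piece below (adjusted p = 0.594), and Acp5 was 5.77 and 2.10 (adjusted p = 0.0155). For Mmp13 the values were 6.52 and 5.99, and for Aldh1a3 5.57 and 1.02 (adjusted p against the piece below 4.81e-04 and 0.103). Among falls, Oprm1 was -1.80 and -1.51 and Gabrb2 -2.25 and -1.40 (adjusted p against the piece below 0.0647 and 0.0420). Sv2c was -1.35 and -0.38 (adjusted p = 0.392). A value that missed the threshold against the piece below does not show that the 2 pieces were alike there.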

How the data were processed

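Bulk RNA-seq libraries of mouse spinal cord (16, in groups of 4) were analysed from 1 table of whole-number counts per gene that the authors deposited, whose columns are named as gene counts per the file headers. Libraries were made from 200 ng of total RNA with a TruSeq RNA kit (v2), which does not mark strand, per the labels' protocols. Tools listed in the submitters' processing notes, without their roles, are Subread 1.4.4, TopHat2 2.0.12 and edgeR, with the build mm10. The annotation release was not given in the sources used here, nor how reads with several matches were treated. The length column, also deposited by the authors, gives coding length in bases (its unit is other than a level) and was used to describe gene classes.

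Counts were fitted with edgeR 4.0.16 in R 4.3.3: TMM scaling, filterByExpr (23769 of 43346 rows, over 99.9% of the counts of each library), a term per group over all 16 libraries and the quasi-likelihood F test with Benjamini-Hochberg adjustment over all tested genes. CPM values are counts scaled to library size by TMM. Genes were grouped by the column names, and 0 columns of samples were left unused. Alternatives were other scalings, filters, DESeq2 1.42.0, limma-voom 3.58.1, a minimum fold, a replicate block and each library left out.

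Genes named over all tested genes are the 12 largest rises and falls of at least 5 CPM with groups that did not overlap, the 10 largest gains and losses in CPM, the 10 best expressed genes with an interval within -0.25 to 0.25, and the 10 with the widest range among epicenter libraries at 20 CPM or more. In each of 41 lists the rule took the 3 called members of largest change and the largest opposite one, of at least 1 CPM. Some genes that these rules take are not reported here. Lists, members and rules were chosen with earlier results of these data known, and list members described beyond the rule were chosen after their values were seen. Promoter windows are those of RefSeq.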

Additional observations from a re-analysis of the deposited data

Results flagged for a closer look

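In 36 of 682 groups of 4 libraries (the genes described, summed cell type markers, depth and ribosomal-type reads, each in epicenter and in uninjured libraries) the highest or lowest library lay apart from the other 3, with a gap to the nearest of them, as a share of the whole range, above Dixon's 95% critical value. That value is set for about 1 in 20 groups of independent, normally distributed values. The groups here are not independent, and some genes were chosen for a wide range among epicenter libraries. The share seen can thus not be judged against that rate. Epicenter 3 was the library apart in 12 groups, epicenter 2 in 6, epicenter 4 in 8 and an uninjured library in 10.

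Epicenter 3 was highest for Angpt1 (33.4 CPM), Clock (68.7 CPM), ENSMUSG00000102049 (58.6 CPM), Gucy1a2 (13.1 CPM), Nr3c1 (115.6 CPM), Oprm1 (3.22 CPM), Oscar (2.17 CPM), Ptbp3 (77.6 CPM) and Syk (44.5 CPM). It was lowest for Fgf7 (3.98 CPM), Pax2 (8.46 CPM) and S100b (502 CPM). Epicenter 2 was highest for the caudal homeobox genes Hoxc11 (3.62 CPM) and Hoxd11 (5.86 CPM), for F2r (13.2 CPM) and for Nnat (232 CPM). It was lowest for Mpzl2 (15.7 CPM) and Pik3cd (37.2 CPM). Epicenter 4 was highest for the dorsal root ganglion markers Avil (24.4 CPM), Scn10a (25.3 CPM), Scn11a (13.5 CPM), Tmem233 (12.5 CPM) and Trpv1 (6.37 CPM), for Calca (243 CPM), for the meningeal marker Crabp2 (19.002 CPM) and for Rara (18.1 CPM).

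Among uninjured libraries, uninjured 4 held the Hoxc11 value of 124 CPM described above and was also highest for AA474408 (24.8 CPM) and Itpr3 (27.0 CPM) and lowest for Igf2bp3 (4.69 CPM). Uninjured 1 was lowest for Bmp4 (0.695 CPM), Foxd3 (1.68 CPM) and Hspb7 (0.0647 CPM) and held the 1 count of Cd200r4 (0.0162 CPM). Uninjured 3 was lowest for Cry1 (14.0 CPM) and highest for Krt80 (0.142 CPM).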

How the results depend on the processing

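The 14565 called genes (7593 higher at the epicenter, 6972 lower) stayed within 1.5 times of these counts under all alternatives but a test against a minimum change of 1 on the log2 scale (edgeR's glmTreat), which called 2810 genes, 2526 higher and 284 lower. Leaving out each of the 16 libraries in turn gave 13489 to 15826 called, 7135 to 8054 higher and 6354 to 7772 lower. No gene called in the main comparison was called in the opposite direction under any of the 28 alternatives. Of the other scalings, library totals moved the split of calls most, to 8299 higher and 6149 lower, and upper-quartile factors gave 7047 higher and 7691 lower; the median of all genes then stood at 0.064 and -0.044. With the label number as a replicate block 14764 genes were called, 7568 higher and 7196 lower. Deviations of same-numbered epicenter and uninjured libraries correlated at -0.039, 0.009, -0.02 and 0.05. Those of epicenter and the piece above correlated at 0.013, 0.132, 0.179 and -0.053. Those of epicenter and the piece below correlated at 0.112, 0.194, 0.309 and 0.079. Correlations over all genes cannot show whether same-numbered libraries also share a step of preparation that touches part of the genes.

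Of 287 called genes among the 325 described, 123 did not pass the minimum change, 20 lost their call under at least 1 other alternative, and 11 uncalled genes gained one in the same direction. No called gene reversed, and the uncalled Itgb8 (0.02) was called lower (-0.18) in the fit of the 8 compared libraries without epicenter 3. Leaving out 1 library moved 23 called genes by over 1.5-fold: besides those given with their values in the comparison, Hoxb13 went to -7.16 without epicenter 1 (-5.18 with it), Myo3a to -4.99 without epicenter 3 (-4.05), Cd200r4 to 12.13 without uninjured 1 (10.43) and Kcnj15 to 9.63 without uninjured 2 (8.60), all genes of few counts in 1 group. The cause was not tested. At these depths a count of 0 in a library allows up to 0.0485 CPM.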
